A study of Mus musculus with 15 samples.

Results

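Solute carriers are membrane proteins that move ions, sugars, amino acids, metals, nucleotides and other small molecules across the plasma membrane and the membranes of organelles. The oligonucleotide array held 246 probes named for 230 genes with a symbol of the form Slc, a number, a and a number. Of these, 186 probes for 178 genes had a value on at least 4 of 5 arrays of every group and were taken as members, out of 11563 probes (9100 named genes) of the whole array that met the same rule. Among the 60 probes left out, 4 had fewer than 2 values in every group, and 1, a probe of the urea channel gene Slc14a1, had all 5 values in 1 group and at most 1 in another. Values were present on all 15 arrays for 106 of the 186 members. Members are called carriers by their symbol, which also takes in adaptor proteins such as Slc9a3r1, Slc9a3r2 and Slc4a1ap.

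The samples were total RNAs of mouse alveolar macrophages, the phagocytes that line the air spaces of the lung. There were 5 samples from integrin beta6 null mice reconstituted with TGFb1 (b6-/-TGFb+/+Dox), 5 from integrin beta6 null mice (b6-/-Dox) and 5 from wild type mice (b6+/+Dox). Doxycycline had been given to all 3 groups, controls included. Ages, strain, sex, and the promoter and cells that drive the TGFb1 transgene are not given in the labels, and no group had TGFb1 added to wild type. Integrin alphav beta6 is an epithelial receptor that releases active TGFb from its latent complex, and mice without the beta6 chain are known to accumulate macrophage metalloelastase, Mmp12. The labels do not say that samples of a group came from separate animals, so p-values measure only how far these samples scatter, which can be technical.

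Each sample was set against a common macrophage reference on a 2-colour array, and each value is a log2 ratio after centring the array on its median. The direction of the ratio is not stated. A positive one likely means more RNA in the sample than in the reference, since the reference is the first channel and Mmp12 is known to be high in this mutant. Mmp12 averaged 2.26 ± 0.61 in beta6 null with TGFb1 (SD, n = 5), 4.57 ± 0.82 in beta6 null (SD, n = 5) and 0.26 ± 0.22 in wild type (SD, n = 4). Ratios show which samples held more or less of 1 RNA and cannot rank carriers by abundance. In bulk RNA, fewer cells of a type and less RNA per cell cannot be told apart. The arrays differed in width: the SD of all values ran from 0.841 to 2.01, and wild type replicate 2 and beta6 null replicate 1 were the widest and held the fewest carrier values (138 and 163 of 186). Xist, which silences an X chromosome in female cells, averaged -3.07 ± 0.49 in beta6 null with TGFb1, -0.40 ± 1.48 in beta6 null and -3.10 ± 0.71 in wild type (SD, n = 5 each), so its mean was highest in beta6 null. The beta6 null arrays were mixed, at -1.45, 0.22, 0.79, -2.46 and 0.88. Replicate 4 of them lay within the wild type range of -4.14 to -2.37.

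In macrophages the family is best known for metals. Slc11a1 (Nramp1) removes metal ions from the phagosome, Slc11a2 (DMT1) brings ferrous iron into the cytosol, Slc48a1 moves haem out of the phagolysosome, and Slc40a1 (ferroportin) exports iron from the cell. Other carriers feed the cell: Slc7a11 exchanges cystine for glutamate, Slc7a2 takes up arginine, and Slc16a1 and Slc16a3 carry lactate.

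Of the 186 carrier probes, 1 passed an adjusted p of 0.05 in any of the 3 comparisons (limma across all 11563 probes, Benjamini-Hochberg). It was Slc26a2, a sulfate transporter, which rose in beta6 null with TGFb1 over beta6 null. In that comparison 1.63% of all probes passed (1.36% higher and 0.277% lower), against 0.538% of carrier probes. Between beta6 null and wild type 0 carrier probes passed, where 1.44% of all probes did. Between beta6 null with TGFb1 and wild type 0 carrier probes passed and 0% of all probes did.

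Looser measures gave carriers a share below that of the array in both comparisons that involve beta6 null alone. At an unadjusted p under 0.05 there were 22 carrier probes (11.8%) between beta6 null with TGFb1 and beta6 null, where 17.5% of all probes reached it. For beta6 null against wild type the count was 15 (8.06%), beside 13.1% of all probes, and for beta6 null with TGFb1 against wild type it was 8 (4.3%), beside 6.62%. Values of the 2 groups did not overlap for 6 carrier probes (3.23%, all probes 8.89%) between beta6 null with TGFb1 and beta6 null. The same held for 2 probes (1.08%, all probes 5%) between beta6 null and wild type. Between beta6 null with TGFb1 and wild type it held for 8 probes (4.3%, all probes 2.65%). The comparisons share groups, so these counts are not independent of each other, and a difference between the shares of carriers and of all probes was not tested.

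**Figure D1:**
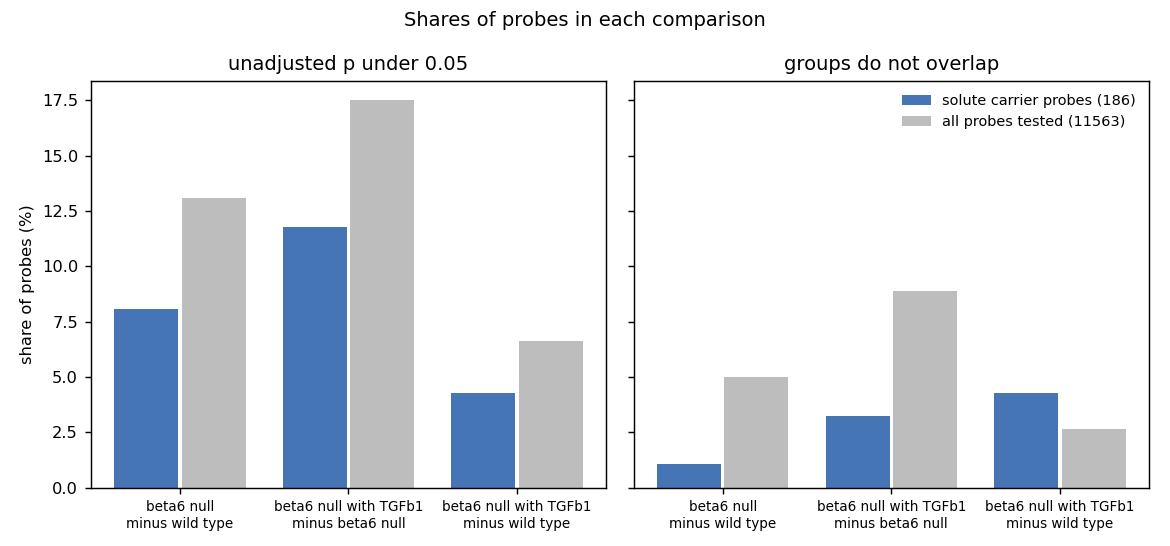
Share of carrier probes (blue, of 186) and of all probes tested (grey, of 11563), in percent, that reached an unadjusted p under 0.05 (left) or whose 2 groups did not overlap (right), for each comparison. Carriers lie below all probes in 5 of the 6 pairs of bars and above in the pair of non-overlapping values for beta6 null with TGFb1 against wild type (4.3% beside 2.65%).

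The typical carrier sat close to the array's centre in each comparison. The median difference over the 186 probes was 0.02 for beta6 null with TGFb1 minus beta6 null (all probes 0.14), -0.07 for beta6 null minus wild type (all probes -0.05) and 0.05 for beta6 null with TGFb1 minus wild type (all probes 0.09). A 95% confidence interval that lay wholly within a 2-fold change either way was reached by 51, 52 and 53 of the 186 probes in these comparisons (27.4%, 28% and 28.5%), where 21.7%, 23.6% and 27.9% of all probes reached it. For the other carriers the interval ran past a 2-fold change on at least 1 side. The median half-width over all carriers was 0.93 log2 units, so most single carriers cannot be called alike between groups.

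By substrate, the largest class, amino acid and peptide carriers (34 probes), had medians of 0.0086 for beta6 null with TGFb1 minus beta6 null and -0.07 for beta6 null minus wild type. The 30 probes of mitochondrial carriers gave 0.03 and -0.11 in the same order of comparisons. Most of this family exchange metabolites across the inner mitochondrial membrane, but the peroxisomal Slc25a17 and the outer membrane protein Slc25a46 were counted with it. Inorganic ion carriers (26 probes) gave -0.03 and -0.04, amine and organic cation carriers (20) gave 0.09 and -0.18, and metal and haem carriers (20) gave 0.12 and -0.16. The amine and organic cation class also took in organic anion transporters of the Slc22 family, such as Slc22a6 and Slc22a8. Its medians are therefore not those of cation carriers alone. The adaptor protein Slc4a1ap was counted with the inorganic ion carriers. Of 11 sugar carrier probes, 9 had a higher mean in beta6 null than wild type (46.4% of all probes did), with a median of 0.25, and 0 of the 11 reached an unadjusted p under 0.05. The class of nucleoside and nucleotide sugar carriers had a median of 0.45 over 9 probes in that comparison. Of these, 2 reached an unadjusted p under 0.05, where 13.1% of all probes did. They were the nucleoside transporter Slc28a2 and Slc33a1, an acetyl-CoA carrier placed in this class. Lipid, bile acid and vitamin carriers (17), organic acid carriers (11) and adaptors and others (8) had medians of -0.11, -0.08 and 0.07 for beta6 null minus wild type. With TGFb1 added to the null, the same 3 classes gave -0.17, 0.18 and -0.15.

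**Figure D2:**
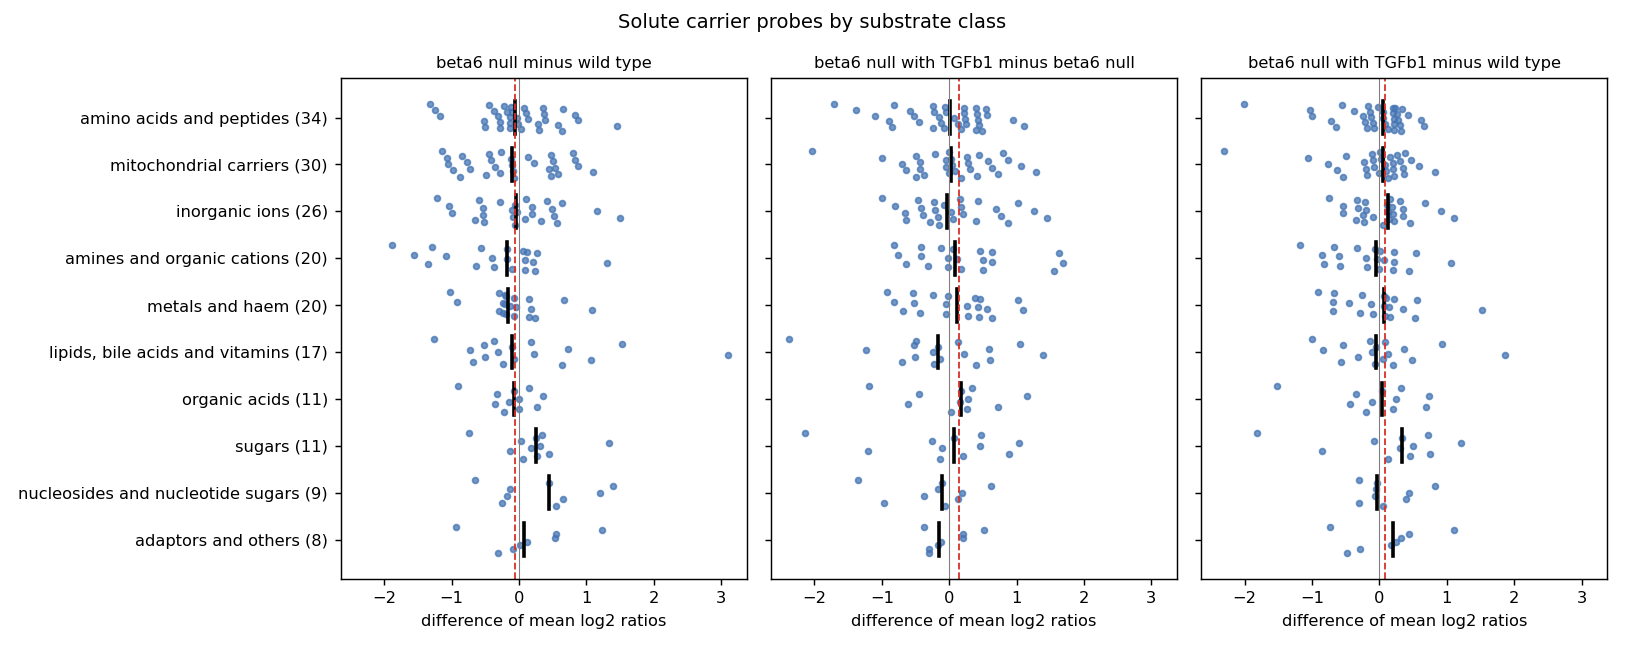
Difference of mean log2 ratios (horizontal axis) for every carrier probe (points), by substrate class with the number of probes in brackets, in the 3 comparisons. Black bars are class medians and the dashed red line is the median of all 11563 probes. Every class spreads to both sides of 0 in each comparison, and the class medians lie between -0.18 and 0.45.

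Slc26a2 supplies the cell with sulfate, which is used to sulfate proteoglycans. Its log2 ratio was 0.23, -0.56, -0.18, -0.49 and -0.64 on the arrays of beta6 null with TGFb1, -2.31, -1.88, -1.57, -1.53 and -1.61 on those of beta6 null and -1.68, -2.04, -0.88, -1.05 and -0.55 on those of wild type. Every array with TGFb1 lay above every beta6 null array, while the wild type arrays spanned values from both. The difference between beta6 null with TGFb1 and beta6 null was 1.45 with a standard error of 0.31, a 2.73-fold rise (adjusted p = 0.0316). Beta6 null was -0.54 from wild type (adjusted p = 0.465) and beta6 null with TGFb1 was 0.91 from it (adjusted p = 0.708), so neither passed.

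Whether Slc26a2 was called depended on single arrays, while its difference stayed between 1.31 and 1.53 when any 1 array was left out. Calls over all probes fell as well, from 189 to 72, 84, 39 and 44 without replicates 1, 2, 3 and 4 of beta6 null with TGFb1. Adjusted p was 0.0813, 0.0597, 0.103 and 0.0714 without replicates 1, 2, 3 and 4 of beta6 null with TGFb1, and 0.0560 and 0.0793 without replicates 1 and 2 of beta6 null. It was 0.0813 after quantile normalization, where the difference was 1.06, and 0.0797 with arrays scaled to equal spread, where it was 0.96. Without the 2 arrays whose title numbers stand apart from the rest (replicate 5 of beta6 null with TGFb1 and replicate 4 of beta6 null) the difference was 1.59 with an adjusted p of 0.0747. With the Xist level of each array as a covariate it was 1.59 with an adjusted p of 0.409, and with that covariate 0 of 11563 probes passed in any comparison. Xist itself passed between beta6 null and both other groups (adjusted p = 0.0373 for TGFb1 and 0.0317 for wild type). A fit with this covariate therefore cannot cleanly tell Xist level and the beta6 null group apart for any probe. Without the 2 widest arrays the Slc26a2 difference was 1.32 with an adjusted p of 0.0172. Arrays titled with the suffix 1 gave a difference of 1.41 (3 against 4 arrays), and those with the suffix 2 gave 1.40 (2 against 1).

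Slc6a4, the serotonin transporter that clears serotonin in lung and nerve endings, came nearest to the threshold among the other carriers. Arrays of beta6 null with TGFb1 had ratios of -1.47, -1.20, -0.82, -1.01 and -1.10, beta6 null arrays had -3.43, -3.56, -1.84, -1.97 and -2.56, and the 4 wild type arrays with a value had -1.91, -0.89, -0.82 and -0.86. All 5 TGFb1 arrays lay above all 5 beta6 null arrays, and wild type replicate 1 lay within the beta6 null range. The means were -1.12 ± 0.24 in beta6 null with TGFb1, -2.67 ± 0.80 in beta6 null and -1.12 ± 0.53 in wild type (SD, n = 5, 5 and 4). The difference was 1.55 ± 0.37 (SE) for beta6 null with TGFb1 minus beta6 null (adjusted p = 0.0512) and -1.55 ± 0.39 for beta6 null minus wild type (adjusted p = 0.0746). The first was called at an adjusted p of 0.0358 without beta6 null replicate 3, 0.0495 without wild type replicate 1 and 0.0306 without wild type replicate 2. Wild type arrays do not enter the first difference, and wild type replicate 2 held no value for Slc6a4. Leaving out that array changed only the spread estimated over all probes and the adjustment. Without it 517 of all 11563 probes passed, against 189 with all arrays. The second was called at 0.0460 without beta6 null replicate 3. Both shrank when arrays were brought to a common distribution: the first was 0.98 (adjusted p = 0.228) after quantile normalization and 0.82 (adjusted p = 0.205) with arrays scaled to equal spread, and the second was -1.05 (adjusted p = 0.268) and -0.87 (adjusted p = 0.286) under the same settings.

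Slc5a5, the sodium iodide symporter of the thyroid, had the same order of means. Its ratio was 0.22, 0.57, -0.22, 0.54 and 0.079 in beta6 null with TGFb1, 0.14, -1.04, -1.02, -1.34 and -1.86 in beta6 null and -0.35, 0.59, 0.43, -0.70 and 0.12 in wild type. Beta6 null replicate 1 lay among the arrays of the other groups, and replicates 2 to 5 lay below all of them. Beta6 null with TGFb1 differed from beta6 null by 1.26 ± 0.36 (SE, adjusted p = 0.0862), and beta6 null from wild type by -1.04 ± 0.36 (adjusted p = 0.211). Without beta6 null replicate 1, 1 of the 2 widest arrays, these were 1.55 (adjusted p = 0.0287) and -1.33 (adjusted p = 0.0493). With the Xist level as a covariate they were 0.82 (adjusted p = 0.66) and -0.59 (adjusted p = 0.786).

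The promoters of Slc6a4 and Slc5a5 are shown as 2 examples of carriers that had their lowest mean in beta6 null and whose sequence RefSeq gives. Other carriers, Slc26a2 among them, also had their lowest mean in beta6 null and are not shown. Each is the 250 bases before the annotated start (RefSeq, build GRCm38.p6), 5′ to 3′, with matches on either strand in capitals to CAGAC, the short core bound by Smad proteins, the transcription factors of the TGFb pathway, or to the GC-rich Smad site GGCGCC. The windows are chr11:76998347-76998596 on the plus strand for Slc6a4 and chr8:70892758-70893007 on the minus strand for Slc5a5.
Slc6a4: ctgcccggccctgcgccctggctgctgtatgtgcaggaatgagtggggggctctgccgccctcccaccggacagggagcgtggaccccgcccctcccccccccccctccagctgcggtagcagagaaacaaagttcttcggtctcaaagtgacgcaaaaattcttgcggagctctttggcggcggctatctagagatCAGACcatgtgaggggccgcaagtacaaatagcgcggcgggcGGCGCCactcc
Slc5a5: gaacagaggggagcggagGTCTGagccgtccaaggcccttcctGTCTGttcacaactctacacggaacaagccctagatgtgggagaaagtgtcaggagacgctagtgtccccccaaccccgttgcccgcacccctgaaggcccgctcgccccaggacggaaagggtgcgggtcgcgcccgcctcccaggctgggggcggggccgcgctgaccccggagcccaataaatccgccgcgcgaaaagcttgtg
Slc6a4 held 1 match to each motif, and Slc5a5 held 2 to the shorter motif, read as its reverse complement on the strand shown, and 0 to the longer one. The motifs do not overlap here. The shorter one is common: 42.2% of 32851 mouse promoters of the same length held CAGAC, and so did 51.6% of the 186 promoters listed for carrier genes (141 of 178 genes matched). GGCGCC was held by 9.59% of all promoters and 13.4% of the carrier promoters. A match of letters is not a binding site.

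**Figure D3:**
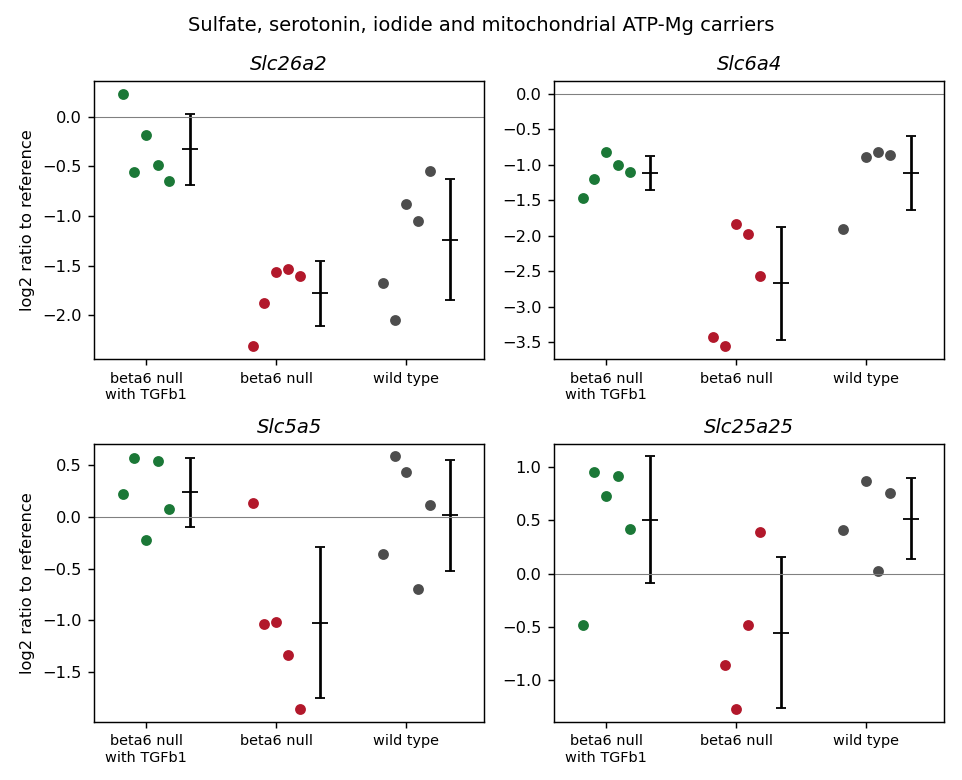
Log2 ratio to the reference (vertical axis, scaled for each gene) on every array (points) of beta6 null with TGFb1, beta6 null and wild type for Slc26a2, Slc6a4, Slc5a5 and Slc25a25, with group mean and SD beside the points. Slc26a2 and Slc6a4 show every TGFb1 array above every beta6 null array; for Slc5a5 and Slc25a25 the groups overlap by 1 array or more.

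Among metal carriers 0 passed the test, and the iron importer Slc11a2 alone had no overlap between any 2 of the 3 groups. It had ratios of 0.065, 0.14, 0.086, 0.15 and 0.12 in beta6 null with TGFb1, 0.64, 0.75, 0.60, 0.66 and 0.51 in beta6 null and 0.047, -0.16, 0.064 and -0.10 in wild type, with 4 values in wild type. Beta6 null lay clear above both other groups. Beta6 null with TGFb1 and wild type were kept apart only by 0.065 beside 0.064, and their difference did not reach an unadjusted p under 0.05. Beta6 null was 0.67 ± 0.19 (SE) above wild type, a 1.59-fold difference (adjusted p = 0.129), and beta6 null with TGFb1 differed from beta6 null by -0.52 ± 0.18 (adjusted p = 0.163). The spread within groups was 0.0813 log2 units, the lowest of all 11563 probes, and the moderated test draws so small a spread toward that of the other probes. Without the 2 widest arrays the difference between beta6 null and wild type was 0.66 with an adjusted p of 0.0461. It lay at 0.61 among arrays of suffix 1 (4 against 1) and 0.57 among those of suffix 2 (1 against 3). What the suffix of a title stands for is not given in the labels, and differences within each suffix stand beside the pooled ones for only some of the named carriers. Only 1 beta6 null array, replicate 5, has suffix 2, so every suffix 2 difference that involves beta6 null rests on that array. Wild type has 2 arrays of suffix 1, and carriers without a value on replicate 2 have 1.

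Slc40a1, the iron exporter, had ratios of 1.14, -0.14, 1.07, 1.04 and 0.75 in beta6 null with TGFb1, -1.20, 0.12, -0.48, 1.51 and 1.73 in beta6 null and -0.92, -0.52, -1.52, -0.29 and -0.49 in wild type. All arrays with TGFb1 lay above all wild type arrays, and beta6 null ran from among the wild type values to above the TGFb1 values. Its mean was 1.52 ± 0.51 (SE) higher in beta6 null with TGFb1 than in wild type, or 2.87-fold (adjusted p = 0.708). Beta6 null stood 1.08 above wild type (adjusted p = 0.379), with an SD of 1.27 among its own arrays. The TGFb1 minus wild type difference was 1.38 within suffix 1 (3 against 2 arrays) and 1.71 within suffix 2 (2 against 3). That of beta6 null minus wild type was 0.71 (4 against 2) and 2.495 (1 against 3).

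Slc48a1, the haem carrier of the phagolysosome, was at 1.04, 0.20, 0.28, 0.14 and 0.47 in beta6 null with TGFb1, -0.0095, -0.17, -0.0075, -0.21 and -0.29 in beta6 null and -0.24, -0.27, 0.057 and 0.059 in wild type. The TGFb1 arrays lay above the arrays of both other groups, which overlapped each other. Against beta6 null the difference was 0.56 ± 0.23 (SE, adjusted p = 0.218) and against wild type 0.53 ± 0.24 (adjusted p = 0.742). Slc30a1 (ZnT1) exports zinc across the plasma membrane and lay lower in every TGFb1 array than in every wild type array, with ratios of -2.86, -0.16, -0.28, -0.93 and -0.11 in beta6 null with TGFb1, -0.37, 0.15, -0.32, -0.24 and -0.14 in beta6 null and -0.043, 0.25, 0.031, 0.019 and -0.007 in wild type. Its difference from wild type of -0.92 (adjusted p = 0.742) rests largely on TGFb1 replicate 1, without which it was -0.42.

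Other metal carriers overlapped. The phagosomal Slc11a1 averaged 0.85 ± 0.28 in beta6 null with TGFb1, 0.47 ± 0.65 in beta6 null and 0.29 ± 0.84 in wild type (SD, n = 5 each), with the wild type value pulled by replicate 2 at -1.18. Slc39a14, a zinc and iron importer, averaged 0.14 ± 0.44, 0.58 ± 0.35 and 0.43 ± 0.76 in the same 3 groups. Slc39a9, a zinc transporter, had 2 member probes: one averaged -0.85 ± 0.24 in beta6 null with TGFb1, -1.87 ± 1.22 in beta6 null and -0.95 ± 0.17 in wild type (n = 5, 5 and 4), and its difference of 1.02 between beta6 null with TGFb1 and beta6 null stood beside -0.05 at the other. For the first of these probes it was 1.31 within suffix 1 and -0.09 within suffix 2. The metal-binding metallothionein Mt2, outside the family, averaged 0.61 ± 0.62 in beta6 null with TGFb1, -0.66 ± 0.42 in beta6 null and 0.49 ± 0.40 in wild type. Its difference was 1.27 for beta6 null with TGFb1 minus beta6 null (adjusted p = 0.0658). Flvcr2, a relative of the haem exporter, averaged -0.68 ± 0.30 in beta6 null with TGFb1, -1.69 ± 0.15 in beta6 null and -0.90 ± 0.88 in wild type. All 5 TGFb1 arrays lay above all 5 beta6 null arrays (adjusted p = 0.156), and wild type ran from -2.415 to -0.25, across the values of both.

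**Figure D4:**
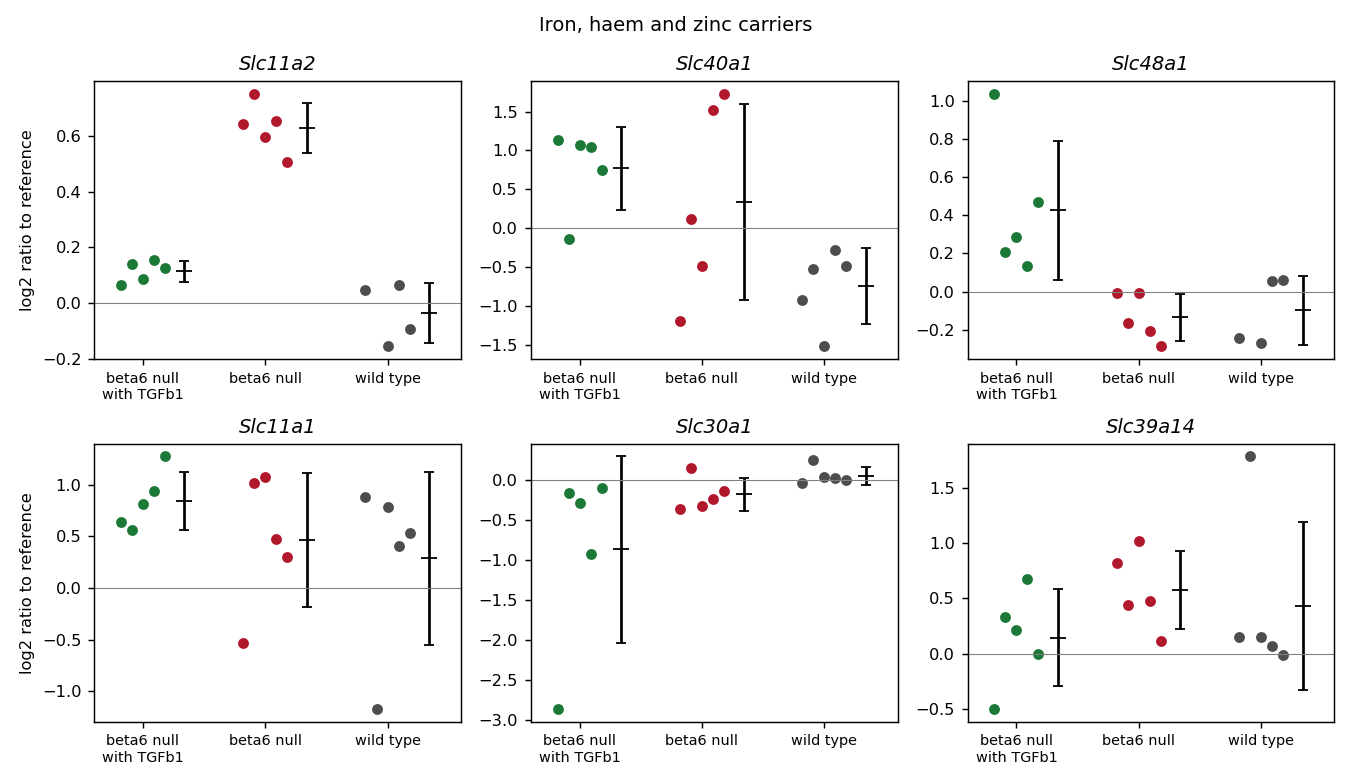
Log2 ratio to the reference (vertical axis, scaled for each gene) of 6 iron, haem and zinc carriers on each array of beta6 null with TGFb1, beta6 null and wild type, with mean and SD. For Slc11a2, beta6 null lies above both other groups, which lie next to each other. Slc40a1 and Slc48a1 put every TGFb1 array above every wild type array, while Slc11a1 and Slc39a14 overlap.

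Nutrient, vitamin and creatine carriers included the widest gap between beta6 null and wild type. The thiamine transporter Slc19a3 had ratios of -0.44, 2.10, 1.44 and 0.32 on the 4 TGFb1 arrays with a value, 3.15, 1.85, 3.77, 1.03 and 0.66 in beta6 null and -2.07, -2.67, 0.88 and -0.21 on 4 wild type arrays. The 3.11 ± 0.84 (SE) difference between beta6 null and wild type had an adjusted p of 0.101, and wild type itself ran over a wide range, so the groups overlapped by 1 value. It was 4.52 within suffix 1 (4 against 1 arrays) and 1.33 within suffix 2 (1 against 3). Slc6a8 imports creatine and lies on the X chromosome. Its ratio was 1.85, 2.17, 1.24, 1.75 and 1.25 in beta6 null with TGFb1, 3.04, 2.56, 2.95, 1.49 and 2.03 in beta6 null and 2.43, 1.49, 1.23, 0.28 and 0.14 in wild type. Beta6 null was 1.30 ± 0.43 (SE) higher than wild type (adjusted p = 0.189), with overlap, and with the Xist level as a covariate this was 1.54 (adjusted p = 0.637). The acetyl-CoA carrier Slc33a1, of the endoplasmic reticulum, averaged -0.53 ± 0.43, -0.15 ± 0.73 and -1.35 ± 0.45 in beta6 null with TGFb1, beta6 null and wild type (SD, n = 5 each). Its difference was 1.20 between beta6 null and wild type (adjusted p = 0.131), and all TGFb1 arrays lay above all wild type arrays, without passing (0.82, adjusted p = 0.741). Within suffix 1 these differences were 1.77 and 1.41, and within suffix 2 they were 0.27 and 0.27. For Slc6a8 the difference between beta6 null and wild type was 0.55 and 1.48 within suffix 1 and suffix 2.

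Among mitochondrial carriers, Slc25a13 (citrin, the aspartate/glutamate carrier) had ratios of -0.87, -0.077, -0.22, -0.33 and -0.044 with TGFb1 and 0.13, 0.91, 1.15, 0.79 and 0.48 in beta6 null. All TGFb1 arrays lay below all beta6 null arrays, a difference of -0.9985 ± 0.44 (SE, adjusted p = 0.26). Without the 2 widest arrays it was -1.14 with an adjusted p of 0.0325. Slc25a46, a protein of the mitochondrial outer membrane, was higher in every TGFb1 array than in every beta6 null array, at means of -0.52 ± 0.17 and -0.96 ± 0.11 (n = 5 each; adjusted p = 0.275). Slc25a25, the ATP-Mg/phosphate carrier, differed by 1.06 for beta6 null with TGFb1 minus beta6 null (adjusted p = 0.182), which was 1.74 within suffix 1 and -0.42 within suffix 2. Slc25a2, an ornithine carrier, differed by -2.30 for beta6 null with TGFb1 minus wild type (adjusted p = 0.679).

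The lowest value for beta6 null with TGFb1 minus beta6 null was that of Slc27a5, a fatty acid transport protein known from the liver, where it also activates bile acids. Its ratio was 0.89, -0.82, -2.998 and 0.47 on 4 arrays of beta6 null with TGFb1, 2.21, 2.84, 1.38 and 0.60 on 4 of beta6 null and 0.61, 1.43, -0.28, -1.11 and 0.47 in wild type, so the groups overlapped. The difference was -2.37 ± 0.81 (SE, adjusted p = 0.153), and it was -3.12 within suffix 1 (3 against 3 arrays) and -0.13 within suffix 2 (1 against 1). The amino acid carrier Slc38a3 and the monocarboxylate carrier Slc16a8 had differences of -1.38 and -1.19 in that comparison, with overlap (adjusted p = 0.526 and 0.429).

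Glutamate, glucose and nucleoside carriers also held low values without passing. The glutamate transporter Slc1a3 averaged -1.73 ± 1.498 with TGFb1, -0.023 ± 0.56 in beta6 null and 0.28 ± 0.30 in wild type (SD, n = 4 each), and no TGFb1 array reached the wild type values (difference -2.01, adjusted p = 0.684). That difference from wild type was -1.12 within suffix 1 (3 against 1 arrays) and -3.76 within suffix 2 (1 against 3). The glucose transporter Slc2a2 and the fructose transporter Slc2a5 differed by -1.20 and -2.14 for beta6 null with TGFb1 minus beta6 null (adjusted p = 0.194 and 0.278), and 1 Slc2a5 array of the TGFb1 group stood at -5.87. Within suffix 1 the Slc2a5 difference was -3.39 and within suffix 2 it was 0.072. The nucleoside transporter Slc28a2 had ratios of 0.617, 1.4965, 0.413 and 0.234 on 4 beta6 null arrays and -1.74, -0.022, 0.021 and -1.10 on 4 wild type arrays. These 2 groups did not overlap, with a difference of 1.40 (adjusted p = 0.37). The Slc28a2 difference was 2.58 within suffix 1 (3 against 1 arrays) and 0.60 within suffix 2 (1 against 3). The organic anion transporter Slc22a8 and the acetylcholine loader of synaptic vesicles Slc18a3 lay 1.63 and 1.68 higher in beta6 null with TGFb1 than in beta6 null, neither passing (adjusted p = 0.135 and 0.263). Within suffix 1 these were 2.22 (3 against 4 arrays) and 2.55 (3 against 3), and within suffix 2 they were 0.15 (2 against 1) and -0.92 (1 against 1).

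Slc34a2 is a phosphate importer of type II alveolar epithelial cells. Its ratio averaged -0.88 ± 0.53 in beta6 null with TGFb1, -0.073 ± 0.80 in beta6 null and -1.23 ± 0.93 in wild type (SD, n = 5, 5 and 4), a difference of 1.16 for beta6 null minus wild type (adjusted p = 0.325). It was 0.72 without wild type replicate 2 and 0.46 with array weights. Among arrays of suffix 1 it was 2.78 (4 against 1) and among those of suffix 2 it was -0.50 (1 against 3). Beside it, 8 of 16 lung epithelium markers were measured: the surfactant gene Sftpc rose in beta6 null over wild type by 2.18 (adjusted p = 0.0321), and the adhesion gene Epcam fell by 2.34 (adjusted p = 0.00951). Epcam rose by 1.98 in beta6 null with TGFb1 over beta6 null (adjusted p = 0.0312). The median of that list on each array ran from -1.16 to -0.30 in beta6 null with TGFb1, from -0.92 to 0.18 in beta6 null and from -1.36 to -0.17 in wild type. Their part in the carrier values was not tested.

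Of the markers of neutrophils, dendritic cells and monocytes, T and B cells and red cells, 1 passed in any comparison. The neutrophil and monocyte gene S100a8 rose in beta6 null over wild type by 2.13 (adjusted p = 9.28e-04), the 1 call among 6 of 9 neutrophil markers measured. Only 2 of the 6, S100a8 and Camp, had a higher mean in beta6 null than in wild type, and the median difference was -0.15. The list medians overlapped, running from -0.53 to 1.36 in beta6 null and from -0.51 to 0.18 in wild type. Dendritic cell and monocyte markers (6 of 10 measured) passed in 0 comparisons, with list medians of 0.69 to 1.92 in beta6 null and -0.59 to 0.81 in wild type, which overlap. All 6 of these had a higher mean in beta6 null than in wild type (median difference 1.32). With TGFb1, 1 of the 6 had a higher mean than in beta6 null (median difference -0.84). For T and B cells (6 of 10 measured) 0 passed, with list medians of -0.23 to 1.49 in beta6 null and -1.04 to 0.33 in wild type, and 1 of 8 erythroid markers was measured, without a call. Of 9 of 13 alveolar macrophage markers measured, Pparg was higher by 1.84 in beta6 null with TGFb1 than in beta6 null (adjusted p = 0.0199), and the list medians ran from -1.19 to -0.65 with TGFb1, from -2.51 to -1.59 in beta6 null and from -2.35 to -0.47 in wild type, which overlapped both. Their part in the carrier values was not tested.

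Of 28 listed carriers known from macrophages, 22 were members and 0 passed in any comparison. At an unadjusted p under 0.05 stood only Slc11a2, Slc34a2 and Slc40a1 between beta6 null and wild type, where 13.1% of all probes did. Only Slc11a2 and Slc48a1 did so between beta6 null with TGFb1 and beta6 null (17.5% of all probes). Between beta6 null with TGFb1 and wild type only Slc40a1 and Slc48a1 did so (6.62% of all probes). The amino acid exchangers Slc7a7 (1.04 ± 0.18 in beta6 null with TGFb1, 0.80 ± 0.25 in beta6 null, 0.83 ± 0.39 in wild type) and Slc7a5 (-0.80 ± 0.27, -0.57 ± 0.35 and -0.64 ± 0.16) kept 1 side of the reference on every array. So did the lactate exporter Slc16a3 (0.75 ± 0.28, 0.48 ± 0.36 and 0.55 ± 0.20), the taurine transporter Slc6a6 (-0.99 ± 0.49, -1.55 ± 0.34 and -1.18 ± 0.31) and the mitochondrial citrate carrier Slc25a1 (0.70 ± 0.16, 1.13 ± 0.37 and 0.68 ± 0.21). The cystine carrier Slc7a11 averaged 0.45 ± 0.41 in beta6 null with TGFb1, 0.023 ± 0.93 in beta6 null and 0.12 ± 0.50 in wild type, and the arginine carrier Slc7a2 -0.41 ± 0.70, -0.26 ± 0.64 and 0.23 ± 0.26. The glucose transporters Slc2a1 and Slc2a3 and the zinc importer Slc39a8 had probes but too few values to be members, and Slc2a6, Slc15a3 and Slc4a7 are not analysed here.

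**Figure D5:**
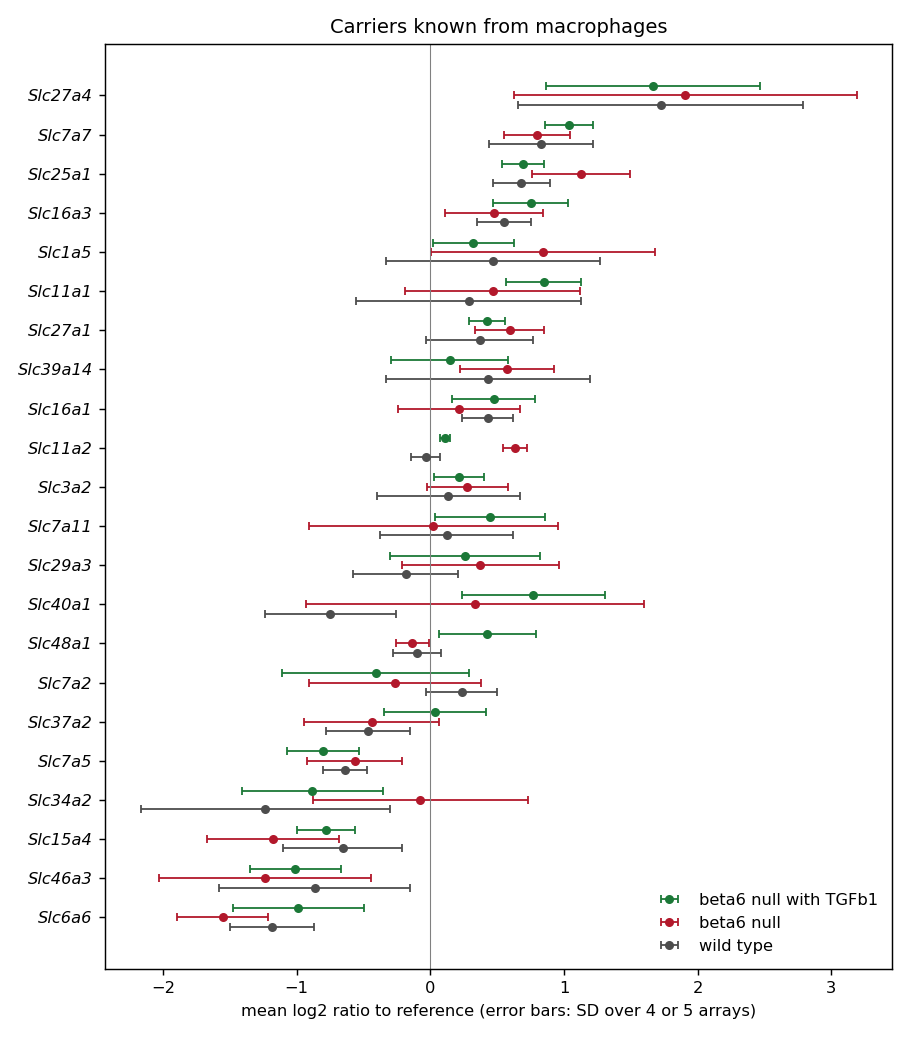
Mean log2 ratio to the reference (horizontal axis) with SD over 4 or 5 arrays for the 22 measured carriers known from macrophages, in beta6 null with TGFb1 (green), beta6 null (red) and wild type (grey). Most intervals overlap; Slc11a2 stands apart, with beta6 null at 0.63 ± 0.09 beside 0.11 ± 0.04 with TGFb1 and -0.03 ± 0.11 in wild type.

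Carriers and carrier partners with other gene symbols, such as uncoupling proteins and organic anion polypeptides, were listed beside the family. Of 33 genes 17 were measured, by 18 probes, and 0 passed in any comparison. Their median difference was 0.22 for beta6 null with TGFb1 minus beta6 null and 0.12 for beta6 null minus wild type.

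Relative to the macrophage reference, which is the same on every array, 29 carrier probes (15.6%) were above it on every array that gave a value and 11 (5.91%) were below it. For all probes these shares were 10.1% and 11.7%. If the ratio ran the other way, above and below would change places here and in what follows. The median carrier ratio was above 0 on all 15 arrays, between 0.08 and 0.35. Among the probes on 1 side of the reference on every array, the highest mean ratios were those of the peroxisomal carrier Slc25a17 at 2.10, the dicarboxylate carrier Slc13a3 at 1.91 and the zinc carrier Slc39a1 at 1.90. Slc6a4, Slc39a9 and Slc6a6 had the lowest of these, at -1.67, -1.24 and -1.24. Slc38a9, an amino acid carrier of the lysosome, had lower means of -2.70 ± 0.65 in beta6 null with TGFb1, -2.91 ± 2.24 in beta6 null and -1.66 ± 1.78 in wild type (SD, n = 5 each), but was above the reference on wild type replicate 2. Within groups the median SD of a carrier was 0.69, close to the 0.70 of all probes, and it ran from 0.0813 for Slc11a2 to 1.97 for Slc8a1, the sodium/calcium exchanger. Arrays correlated over carriers at r = 0.22 to 0.73, with medians of 0.52 within groups and 0.49 between them, given as a description of arrays that share 1 reference. For 8 genes 2 probes were members, and the pairs for Slc24a2 and Slc38a10 went opposite ways both in beta6 null with TGFb1 minus beta6 null and in beta6 null minus wild type.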

How the data were processed

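The deposited values were 1 log2 ratio per probe and array, taken as base 2. Base, direction, scanner and normalization are not given in the sources used here, per the labels and the file headers. Groups came from the labels. After 30 control spots were dropped from 17225, 13972 of 17195 probes had a single symbol in the platform's annotation. Arrays were centred on their medians. Probes valued on at least 4 of 5 arrays per group (11563) were fitted singly with 3 group means over 15 arrays in limma 3.58.1 (lmFit, eBayes; R 4.3.3), and Benjamini-Hochberg adjustment ran over all of them in each comparison, calling at 0.05. The files give no counts, so precision is limited by how many arrays there are. The steps were tested on simulated data.

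Members and lists were chosen with earlier results of these data known. Named genes (53 by rule) were every carrier past the threshold, the 8 largest rises and falls at an unadjusted p under 0.05, the smallest p of each class, and listed macrophage carriers. Slc25a46, Slc38a3, Slc38a9, Slc25a17, Slc13a3, Slc39a1, Slc8a1, Slc24a2, Slc38a10, Mt2 and Flvcr2, the markers, the promoters shown and the genes plotted were chosen after their values were seen. Promoters came from RefSeq. Altogether 27 alternatives were tried.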

Additional observations from a re-analysis of the deposited data

Results flagged for a closer look

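A single array lay far from the others of its group for 13 named carriers, and for the median carrier ratio of 1 array, among 162 groups checked by Dixon's test, which chance alone passes in about 1 group in 20. On wild type replicate 2, 1 of the 2 widest arrays, Slc9a3r1 stood at -4.09 (next value 0.07), Slc11a1 at -1.18 (0.41), Slc39a14 at 1.79 (0.15) and Slc30a1 at 0.25 (0.031). On wild type replicate 1, Slc6a4 was at -1.91 (next value -0.89) and Slc1a5 at 1.66 (0.14), each among 4 values. Replicate 1 of beta6 null with TGFb1 was low for Slc22a8 at -1.16 (next value 0.52), Slc44a1 at -0.80 (0.39) and Slc16a8 at -0.996 (0.83). Replicate 2 of that group stood at 0.21 for Slc33a1 (next value -0.58) and -1.60 for Slc46a3 (-0.98), and replicate 5 at -0.13 for Slc9a3r2 (0.39). Beta6 null replicate 1, the other of the widest arrays, was low for Slc16a1 at -0.59 (next value 0.34). Its median carrier ratio of 0.35 was the highest of its group (next value 0.25).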

How the results depend on the processing

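Of 27 alternatives, those below moved a count of carriers by over 1.5 times, moved a median or turned a sign. Between beta6 null and wild type 0 carriers passed, and 4 passed with array weights (Slc11a2, Slc6a4, Slc40a1 and Slc5a5), 1 without the 2 widest arrays (Slc11a2) and 0 to 1 when single arrays were left out. Between beta6 null with TGFb1 and beta6 null 1 passed, with 0 after quantile normalization, with equal spread, without the 2 arrays numbered apart and with Xist as a covariate. There were 7 with array weights (Slc11a2, Slc6a9, Slc6a4, Slc12a2, Slc25a13, Slc26a2 and Slc5a5), 5 without the 2 widest arrays and 0 to 2 without single arrays. Between beta6 null with TGFb1 and wild type 0 passed under each alternative. Over all probes the counts ran from 0 to 1021 for beta6 null with TGFb1 minus beta6 null, 0 to 525 for beta6 null minus wild type and 0 to 9 for beta6 null with TGFb1 minus wild type, against 189, 166 and 0. The median carrier difference of beta6 null minus wild type (-0.07) was 0.016 on probes with all 15 values, -0.015 with array weights, -0.020 without the 2 arrays numbered apart, 0.084 with Xist and -0.081 to 0.016 without single arrays. For beta6 null with TGFb1 minus beta6 null (0.02) it was -0.016 after quantile normalization, 0.0004 without centring, -0.00041 with probes of a gene averaged, -0.031 on probes with all 15 values, -0.084 with Xist and -0.014 to 0.099 without single arrays. For beta6 null with TGFb1 minus wild type (0.05) it was -0.0087 without the 2 widest arrays and -0.0087 to 0.077 without single arrays. Slc16a11, a monocarboxylate carrier relative, had a difference of 0.27 for beta6 null minus wild type, which was -0.0045 after quantile normalization and -0.051 with equal spread. The causes were not tested. No paired analysis was possible because the labels give no replicate numbers, and numbers in accession order only name the samples.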
